A study of Mus musculus with 6 samples.

Results

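Genes of the ubiquitin and proteasome system were examined in mouse CD4+ T cells after exposure to tunicamycin. Members were rows of the count table whose gene symbol belongs to 1 of 7 families, namely proteasome subunits and regulators (Psm), ubiquitin-conjugating enzymes (Ube2), ligases named Ube3, RING finger proteins (Rnf), F-box proteins (Fbxl, Fbxo, Fbxw), Kelch-like proteins (Klhl) and deubiquitinases (Usp, Otud). The rule used names only and found 106 members among 13685 rows. GENCODE M21 lists 352 protein-coding genes with such names, so 30.1% of them had a row here, and the others were not analysed here.

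The tunicamycin group was CD4+ T cells of WT C57BL/6 mice, isolated from the spleen and the mesenteric lymph nodes and held for 4 h in culture with 0.15 µg/mL tunicamycin. The vehicle group was WT cells of the same source held for the same time, titled as having no treatment and labelled as vehicle. Cells of both groups were CD25-negative, that is, depleted of most regulatory T cells. Each group had 3 libraries, which the titles call technical replicates. The labels do not say whether these came from separate animals or cultures, so a p-value here covers library-to-library spread alone, which may be technical.

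Ubiquitin is attached to proteins by a cascade in which an activating enzyme (E1) passes it to a conjugating enzyme (E2), and a ligase (E3) selects the substrate. The proteasome, a barrel-shaped core with regulatory caps, degrades proteins that carry ubiquitin chains, and deubiquitinases remove the chains. Misfolded proteins of the endoplasmic reticulum are retrotranslocated to the cytosol and degraded by the same machinery. Tunicamycin stops the transfer that begins the assembly of N-linked sugar chains, and unglycosylated proteins then misfold in the endoplasmic reticulum. Lymphocytes also carry immunoproteasomes, in which inducible catalytic subunits replace the standard ones.

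Summed estimated counts over the rows analysed were 10584276, 11211270 and 10868816 in tunicamycin replicates 1 to 3 and 7412151, 7618385 and 9495725 in vehicle replicates 1 to 3. Of the 12 listed T cell markers, 7 had a row, and Cd3e, a chain of the T cell receptor complex, lay between 545 and 626 TPM (transcripts per 1000000) over the 6 libraries. Cd4 was not analysed here. Markers of other cells were also present, each list summing to less than the T cell list, which was at 3463 TPM or more in each library. Of 5 plasma cell markers 3 had a row, at 26.1 to 191 TPM in tunicamycin and 21.4 to 183 TPM in vehicle, most of it Igha, an antibody chain. NK cell markers (4 of 7) summed to 10.5 to 17.0 TPM in tunicamycin and 9.51 to 10.995 TPM in vehicle, macrophage and monocyte markers (4 of 7) to 6.30 to 11.9 TPM in tunicamycin and 3.92 to 12.6 TPM in vehicle, and the CD8 T cell marker with a row to 10.5 to 11.9 TPM in tunicamycin and 9.47 to 10.8 TPM in vehicle. The regulatory T cell marker with a row, Il2ra (CD25), was at 7.74 to 14.1 TPM in tunicamycin and 6.87 to 8.41 TPM in vehicle. B cell, neutrophil and erythroid lists summed to between 0 and 4.16 TPM in each library. The ranges overlapped for each list, and the part of these cells in the members' values was not tested. In RNA from a cell population, fewer expressing cells and less RNA per cell cannot be told apart.

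No ubiquitin or proteasome gene passed the test of tunicamycin against vehicle. Of 64 members tested with edgeR, 0 had an adjusted p under 0.05, beside 3 of all 3613 genes tested (0.083%). DESeq2 called 0 of the 64 (22 of its 4266 genes with an adjusted p, 0.516%), and limma on log2(TPM + 1) called 0 (1 of 3613 genes, 0.0277%). At an unadjusted p under 0.05 edgeR listed 2 members, against 6.42% of all genes. Of these, 1 was higher in tunicamycin (3.24% of all genes) and 1 was lower (3.18% of all genes). These were Usp31, a deubiquitinase, and Psmb2, a subunit of the proteasome core.

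Fold changes of the members were small where counts were high enough to measure them. The median log2 fold change of the 64 was -0.03, against 0.0007 over all genes tested, and 26 members lay above 0 and 38 below. The sign of that median depended on the scaling: in limma on log2(TPM + 1) it was 0.05 for the members and 0.05 for all genes tested. Of 40 named members tested, 10 had the other sign there, namely Fbxl14, Fbxo33, Klhl2, Klhl21, Otud1, Rnf40, Ube2d1, Ube2n, Ube2r2 and Usp39. Over 18 alternatives 22 of the 40 kept their sign throughout. Since 0 of the 40 were called, no direction is read for any of them. Across the 64 members, 51 intervals lay within a 1.5-fold change in either direction, as did 1906 of the 3613 over all genes. For 50 of the 64 the mean level was 5 or more in log2 CPM (counts per 1000000, library sizes scaled), and 50 of these 50 had their 95% interval within a 1.5-fold change, as had 1793 of the 1912 genes of that level. Among these 50 members, the fitted log2 fold changes ran from -0.25 to 0.23. The median half-width of their intervals was 0.17 on the log2 scale, before adjustment. Changes well below that were not detectable at this depth and spread. Larger changes could also fail the adjusted test, as Psmb2 did at -0.25 (edgeR adjusted p = 0.36).

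**Figure D1:**
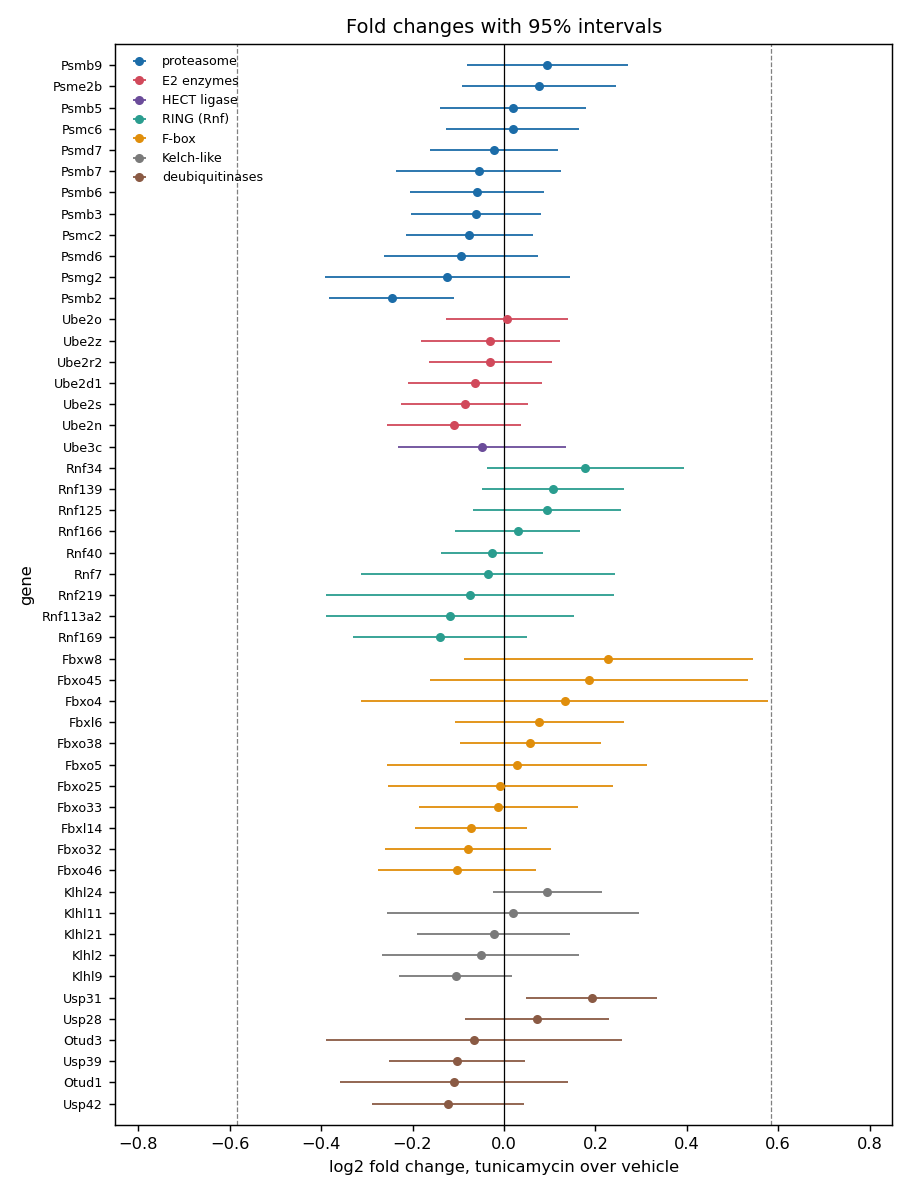
Fitted log2 fold change of tunicamycin over vehicle (x axis) for the 50 members at a mean log2 CPM of 5 or more, grouped by family, with 95% intervals from edgeR as bars and dashed lines at a 1.5-fold change. The intervals of Psmb2 and Usp31 exclude 0 before adjustment, and 50 of 50 intervals lie between the dashed lines.

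**Figure D2:**
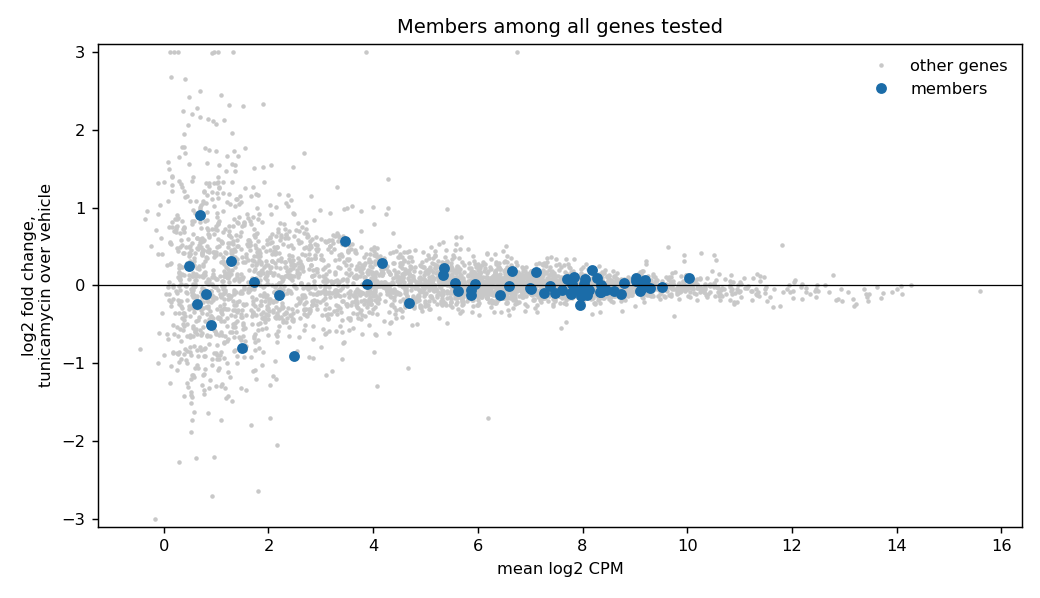
Log2 fold change of tunicamycin over vehicle (y axis) against mean log2 CPM (x axis) for 3613 tested genes, with the 64 members as large points and changes beyond 3 in either direction drawn at the edge. Members at a mean log2 CPM of 5 or more lie between -0.25 and 0.23, and wider values occur among members with few counts.

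Levels are given in TPM, which the authors scaled for transcript length, so that genes can be compared. Of the 106 members, 56 had a mean of at least 1 TPM over the 6 libraries, 22 at least 50 TPM and 7 at least 100 TPM. The highest was Rnf125, a RING ligase first described as an activator of T cell receptor signalling, followed by Psmb6, Psmb3, Ube2r2, Psmb2, Ube2n and Psme2b. By family, the median level of the tested members was 75.5 TPM for the proteasome, 71.7 TPM for E2 enzymes, 16.9 TPM for RING proteins, 15.1 TPM for deubiquitinases, 10.2 TPM for F-box proteins and 8.17 TPM for Kelch-like proteins.

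**Figure D3:**
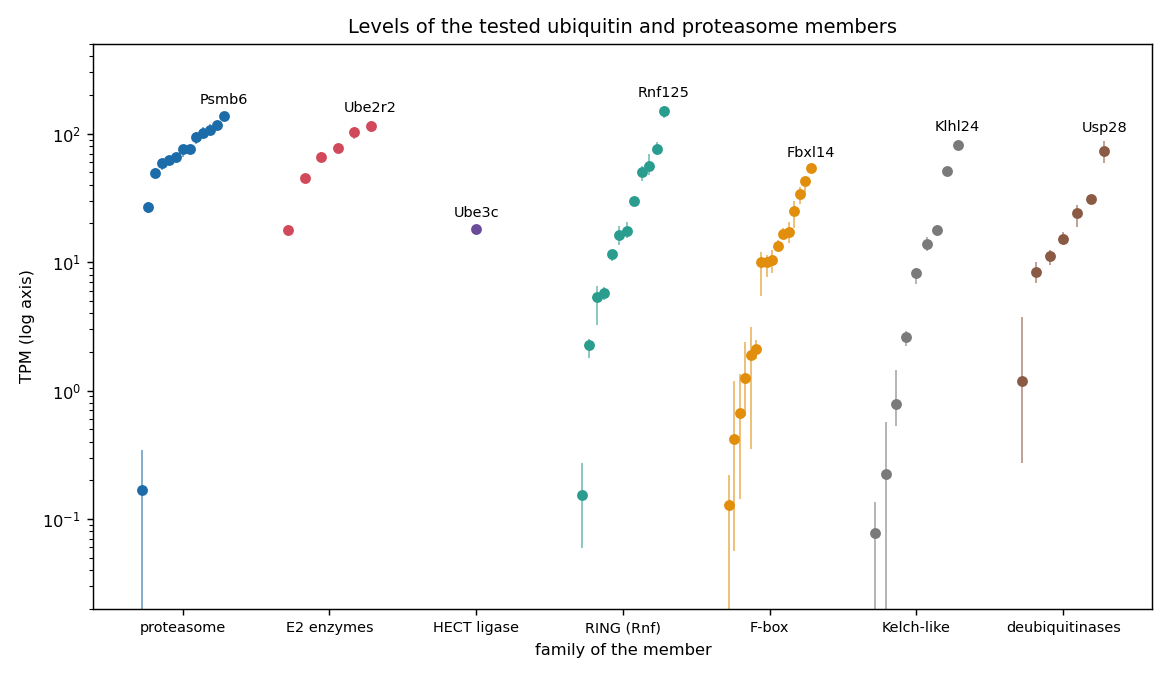
TPM of each tested member (points, mean of 6 libraries; lines, lowest to highest library) on a log axis, by family, with the highest member of each family named. E2 members lie between 17.8 and 116 TPM, proteasome members other than Psmb11 lie between 26.96 and 138 TPM, and the Rnf, F-box and Kelch-like families reach below 1 TPM.

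Of the 14 proteasome members with a row, 13 were tested. Called genes numbered 0, and 5 lay above 0 and 8 below, with a median log2 fold change of -0.06. Their summed level was 972 ± 17.1 TPM in tunicamycin and 973 ± 20.1 TPM in vehicle (SD, n = 3 each), with overlapping groups.

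Psmb6, Psmb7 and Psmb5 encode the standard catalytic subunits of the core, with caspase-like, trypsin-like and chymotrypsin-like activity in that order. Psmb6 was at 144, 135 and 133 TPM in tunicamycin replicates 1 to 3, against 140.3, 132 and 144 TPM in vehicle replicates 1 to 3. Psmb5 was at 81.1, 74.1 and 80.2 TPM in tunicamycin, against 76.4, 72.6 and 73.6 TPM in vehicle. Psmb7 was at 60.2, 56.2 and 58.8 TPM in tunicamycin, against 61.7, 63.7 and 51.8 TPM in vehicle. The groups overlapped for each of these genes. Log2 fold changes in edgeR were -0.06 (95% interval -0.20 to 0.09) for Psmb6, 0.02 (95% interval -0.14 to 0.18) for Psmb5 and -0.06 (95% interval -0.24 to 0.12) for Psmb7.

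Psmb9 encodes the immunoproteasome subunit that takes the place of Psmb6 and is induced by interferon. It was at 78.4, 82.1 and 73.1 TPM in tunicamycin, against 66.4, 82.4 and 70.8 TPM in vehicle. The groups overlapped, and the log2 fold change was 0.09 (95% interval -0.08 to 0.27; edgeR adjusted p = 0.91). As a share of the summed TPM of Psmb9 and Psmb6, Psmb9 made up 36.2% ± 1.47 in tunicamycin and 34.5% ± 3.38 in vehicle (SD, n = 3 each; 2-sided exact permutation test, p = 0.5, where 0.1 is the smallest p the design allows). Its exons overlap those of Tap1 on the opposite strand in GENCODE M21, and whether counting used strand is not given in the sources used here. Psmb8 and Psmb10, the other inducible catalytic subunits, were not analysed here. Psmb11, the catalytic subunit of the thymus-specific proteasome, was between 0.0073 and 0.343 TPM over the 6 libraries.

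Psmb2 and Psmb3 encode structural subunits of the core that carry no active site. Psmb2 was at 232, 221 and 230.1 CPM in tunicamycin replicates 1 to 3, against 274, 268 and 268 CPM in vehicle replicates 1 to 3. Every tunicamycin library was below every vehicle library, also in TPM, where Psmb2 was at 98.4 ± 0.639 in tunicamycin and 115 ± 4.95 in vehicle (SD, n = 3 each). The log2 fold change was -0.25 with an SE of 0.06 (95% interval -0.38 to -0.11), at an unadjusted p = 0.0021 and an edgeR adjusted p = 0.36, so it did not pass. Over 18 alternatives the adjusted p ran from 0.063 to 1.00 and the log2 fold change from -0.28 to -0.20. Psmb2 lies on chromosome 4 from 126677630 to 126709714 on GRCm38. Psmb3 was at 118, 116 and 113 TPM in tunicamycin, against 125, 113 and 117 TPM in vehicle, with overlapping groups and a log2 fold change of -0.06 (95% interval -0.20 to 0.08). The difference between Psmb2 and its neighbours in the core was not tested.

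Psmc2 and Psmc6 encode ATPases that unfold substrates at the base of the cap. Psmc2 was at 64.8, 60.2 and 60.4 TPM in tunicamycin, against 66.7, 59.6 and 60.8 TPM in vehicle, a log2 fold change of -0.08 (95% interval -0.22 to 0.06). Psmc6 was at 93.9, 103 and 97.9 TPM in tunicamycin, against 82.6, 102 and 90.9 TPM in vehicle, a log2 fold change of 0.02 (95% interval -0.13 to 0.16). The groups overlapped for both ATPases. Psmd6 and Psmd7 encode subunits of the lid, the part of the cap that removes ubiquitin from substrates. Psmd6 was at 148, 146 and 150.2 CPM in tunicamycin, against 153, 168 and 154 CPM in vehicle. These groups did not overlap in CPM but did in TPM, and the log2 fold change of -0.09 did not pass (95% interval -0.26 to 0.07; edgeR adjusted p = 0.91). Psmd7 was at -0.02 (95% interval -0.16 to 0.12).

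Psmg2, a chaperone of core assembly, was at 24.5, 24.0 and 29.2 TPM in tunicamycin, against 29.6, 28.6 and 25.8 TPM in vehicle, a log2 fold change of -0.12 (95% interval -0.39 to 0.14). Psme2b, a close copy of the gene for a subunit of the PA28 activator, was at 113, 101 and 102 TPM in tunicamycin, against 104, 92.5 and 97.0 TPM in vehicle. The groups overlapped for both genes. Reads of Psme2b and Psme2 can be split by the counting, and Psme2 was not analysed here, so the level of Psme2b is uncertain. The exons of Psme2b also overlap those of the protein-coding 9930111J21Rik1 on the same strand. Psma8, the testis form of a core subunit, had 0 counts in each library.

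**Figure D4:**
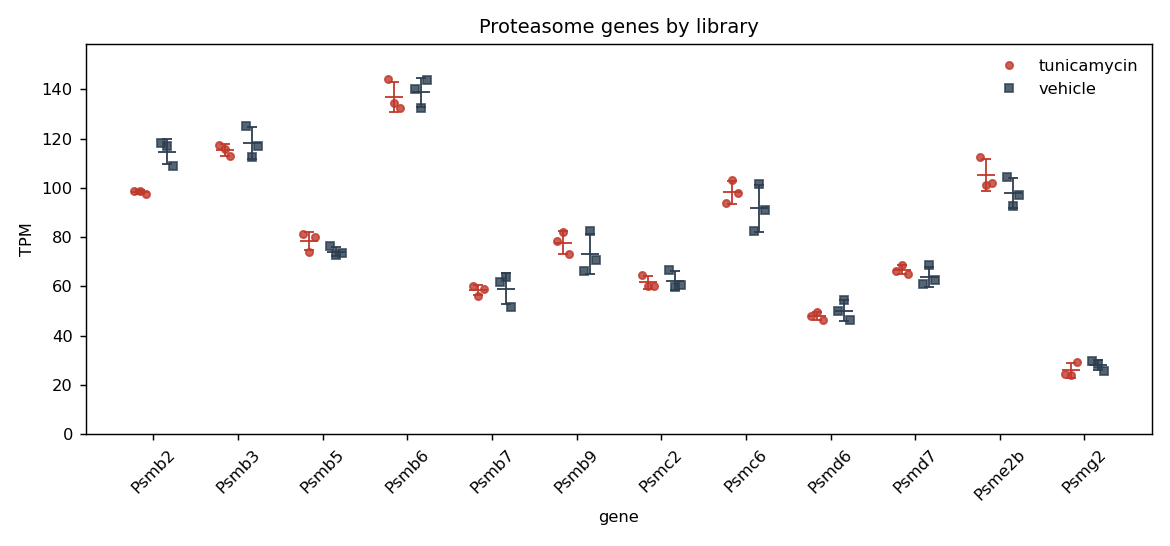
TPM of 12 proteasome genes (x axis) in the tunicamycin libraries (circles) and the vehicle libraries (squares), 3 each, with mean and SD as bars; Psmb11, at under 1 TPM, is left out. Psmb2 is the gene whose groups do not overlap, at 97.7 to 98.8 TPM in tunicamycin against 109 to 118 TPM in vehicle.

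Proteasome genes are known targets of NRF1 (Nfe2l1), a factor of the endoplasmic reticulum membrane that binds antioxidant response elements, and genes of the unfolded protein response carry elements bound by ATF6, XBP1 or ATF4. RefSeq promoter windows on GRCm38.p6, from 250 bases before to 50 after the start, were found by symbol for 44 of the 64 tested members, of which 9 were proteasome genes. Both strands were searched for letters alone. A gene was counted if any of its windows held the letters, while the percentages are over single windows, so they are not the same measure. The element of ATF6 (CCAAT, then 9 bases of any kind, then CCACG) was in 0 of the 44 and in 0.119% of all 32851 windows, and that of XBP1 (TGACGTGG) was in 0 of the 44 and in 0.676% of all windows. The element of ATF4 (TGATGNAA) was found for 2 of the 44, Fbxo48 and Fbxw19, and in 3.97% of all windows. The antioxidant response element (TGACNNNGC) was found for 8 of the 44 and in 12.4% of all windows. Of the 9 proteasome genes, 3 held it, and their sequences are shown here because they carry the letters of the element best known for control of proteasome genes. Capitals mark the match, read 5′ to 3′ on the strand of the gene, with up to 30 bases on either side inside the window and none beyond the RefSeq start. The letters of the XBP1 and antioxidant elements can overlap.
Psmb5: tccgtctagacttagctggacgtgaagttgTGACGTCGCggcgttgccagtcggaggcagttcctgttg
Psmb6: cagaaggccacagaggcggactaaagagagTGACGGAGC
Psmc6: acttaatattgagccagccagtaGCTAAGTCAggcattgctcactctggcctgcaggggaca

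The stretches lie at chr14:54618004-54618072 on the minus strand for Psmb5, chr11:70525318-70525356 on the plus strand for Psmb6 and chr14:45329574-45329635 on the plus strand for Psmc6. The match starts 47 bases before the start of Psmb5, 9 before that of Psmb6 and 227 before that of Psmc6, where it reads on the opposite strand. The log2 fold changes of these genes were 0.02, -0.06 and 0.02, as given above, and a match of letters is a description and not evidence of binding.

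Of 10 E2 members, 6 were tested, 4 were at 0 in every library and 0 were called, with a median log2 fold change of -0.05. Ube2r2, which extends chains on substrates of cullin ligases, was at 126, 109 and 119 TPM in tunicamycin, against 124, 103 and 114 TPM in vehicle. Ube2n, which builds signalling chains downstream of the T cell receptor, was at 113, 108 and 102 TPM in tunicamycin, against 91.1, 106 and 100.3 TPM in vehicle. The groups overlapped for both. For Ube2n the log2 fold change was -0.11 in CPM (95% interval -0.26 to 0.04) and 0.12 in limma on log2(TPM + 1), so its direction depended on the scaling. Ube2d1, a general partner of RING ligases, was at -0.06 (95% interval -0.21 to 0.08) and changed sign with the same scaling. Ube2s, which elongates chains for the anaphase-promoting complex, was at -0.09 (95% interval -0.22 to 0.05). Ube2z, an E2 charged by the E1 enzyme Uba6, and Ube2o, a large E2 that also acts as a ligase, were at -0.03 and 0.01.

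Ube3c, a ligase bound to the proteasome, was the sole Ube3 gene with a row. It was at 18.7, 16.3 and 19.0 TPM in tunicamycin, against 18.1, 18.8 and 17.4 TPM in vehicle, with overlapping groups and a log2 fold change of -0.05 (95% interval -0.23 to 0.14).

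Of 23 RING members, 12 were tested, 8 were at 0 in every library and 0 were called, with a median log2 fold change of -0.03. Rnf125 was at 157, 152 and 165.2 TPM in tunicamycin, against 140.1, 133 and 156 TPM in vehicle. The groups overlapped, since vehicle replicate 3 was level with the tunicamycin libraries, and the log2 fold change was 0.09 (95% interval -0.07 to 0.26; edgeR adjusted p = 0.90). Rnf139, a ligase of the endoplasmic reticulum membrane that takes part in degradation of membrane proteins, was at 31.7, 29.98 and 31.5 TPM in tunicamycin, against 29.1, 27.4 and 30.4 TPM in vehicle. The groups overlapped, and the log2 fold change of 0.11 did not pass (95% interval -0.05 to 0.26; edgeR adjusted p = 0.87). The exons of Rnf139 overlap those of Tatdn1 on the opposite strand and of the protein-coding Gm49356 on the same strand, so its reads may be shared.

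Rnf166, a RING ligase linked to antiviral signalling, was at 85.9, 78.3 and 73.0 TPM in tunicamycin, against 74.4, 70.4 and 72.6 TPM in vehicle, with a log2 fold change of 0.03 (95% interval -0.11 to 0.17). Rnf7, the RING subunit of some cullin ligases, was at 56.8, 48.0 and 57.6 TPM in tunicamycin, against 49.6, 52.2 and 70.0 TPM in vehicle, with a log2 fold change of -0.03 (95% interval -0.31 to 0.24). For Rnf166 and Rnf7 the groups overlapped. Rnf34, a ligase linked to turnover of caspases, was at 0.18 (95% interval -0.04 to 0.39), but at 0.07 in limma on log2(TPM + 1), 0.01 with effective-length offsets and 0.09 without vehicle replicate 2. Its exons overlap those of Kdm2b on the opposite strand. Rnf169, a protein recruited to DNA breaks, was at -0.14 (95% interval -0.33 to 0.05). Rnf40, which ubiquitinates histones together with Rnf20, was at -0.03 (95% interval -0.14 to 0.09). The closely related Rnf113a1 and Rnf113a2, between which reads may be split, were at -0.23 (95% interval -0.79 to 0.33) and -0.12 (95% interval -0.39 to 0.15).

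F-box proteins are the substrate receptors of cullin ligases that contain Skp1. Of 28 members, 16 were tested, 8 were at 0 in every library and 0 were called, with a median log2 fold change of 0.01. Fbxl14, known for turnover of the Snail factor, was at 56.0, 55.5 and 53.8 TPM in tunicamycin, against 54.7, 49.6 and 53.5 TPM in vehicle. Fbxo38, known to direct turnover of the receptor PD-1 in T cells, was at 42.5, 45.9 and 44.9 TPM in tunicamycin, against 41.0, 46.4 and 34.6 TPM in vehicle. The groups overlapped for both, with log2 fold changes of -0.07 (95% interval -0.20 to 0.05) for Fbxl14 and 0.06 (95% interval -0.10 to 0.21) for Fbxo38. In limma on log2(TPM + 1) Fbxl14 was at 0.07.

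Fbxl6 was at 0.08 (95% interval -0.11 to 0.26) and Fbxo33 at -0.01 (95% interval -0.19 to 0.16). Fbxo32, known as atrogin and for muscle wasting, was at 15.2, 16.3 and 17.3 TPM in tunicamycin, against 15.9, 15.7 and 18.4 TPM in vehicle, with a log2 fold change of -0.08 (95% interval -0.26 to 0.10). Fbxo2, which binds the sugar chains of glycoproteins and is known from neurons, had 3, 0 and 0 counts in tunicamycin and 13, 0 and 0 counts in vehicle and was not tested. Fbxw8, an adaptor of the cullin Cul7, was at 0.23 on the log2 scale (95% interval -0.09 to 0.55). Fbxo48 and Fbxw10, with 3.00 to 10.1 and 4.25 to 15.2 CPM over the 6 libraries, had wide intervals of -1.89 to 0.07 and -0.24 to 1.39. The exons of Fbxw10 overlap those of the protein-coding Trim16 on the same strand, so its reads may be shared.

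Kelch-like proteins mostly serve as substrate receptors of cullin ligases built on Cul3. Of 15 members, 9 were tested, 2 were at 0 in every library and 0 were called, with a median log2 fold change of 0.02. Klhl24 was at 1061, 1061 and 1148 CPM in tunicamycin, against 989.5, 1047 and 1025 CPM in vehicle, so the groups did not overlap. Its log2 fold change of 0.09 did not pass (95% interval -0.02 to 0.21; edgeR adjusted p = 0.84). With offsets for effective length it was -0.05, and in TPM the groups overlapped, at 78.0, 78.1 and 89.1 in tunicamycin against 76.6, 84.4 and 83.2 in vehicle. Klhl9, which acts on Aurora kinase in mitosis, was at 419, 413 and 405 CPM in tunicamycin, against 433, 434 and 463 CPM in vehicle. The groups did not overlap, in TPM either, and the log2 fold change was -0.11 (95% interval -0.23 to 0.02; edgeR adjusted p = 0.84). The exons of Klhl9 overlap a gene model on the opposite strand. Klhl41, known from muscle, was at 19.6, 19.4 and 20.003 CPM in tunicamycin, against 16.9, 15.5 and 15.8 CPM in vehicle, a log2 fold change of 0.29 that did not pass (95% interval -0.16 to 0.74; edgeR adjusted p = 0.89). Klhl21 was at -0.02 (95% interval -0.19 to 0.14) and at 0.10 in limma on log2(TPM + 1), and Klhl2 was at -0.05 (95% interval -0.27 to 0.17) and at 0.007 in limma.

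Of 15 deubiquitinases, 7 were tested, 5 were at 0 in every library and 0 were called, with a median log2 fold change of -0.10. Usp28, which stabilises Myc, was at 77.3, 87.2 and 69.6 TPM in tunicamycin, against 78.3, 59.5 and 65.7 TPM in vehicle, with overlapping groups and a log2 fold change of 0.07 (95% interval -0.09 to 0.23). Usp31 was at 308, 296 and 319.5 CPM in tunicamycin, against 281, 256 and 271 CPM in vehicle. Every tunicamycin library was above every vehicle library, also in TPM, at 11.996 ± 0.357 in tunicamycin and 10.1 ± 0.656 in vehicle (SD, n = 3 each). The log2 fold change was 0.19 with an SE of 0.07 (95% interval 0.05 to 0.34), at an unadjusted p = 0.013 and an edgeR adjusted p = 0.57, so it did not pass, and over 18 alternatives the adjusted p was 0.13 or above. Usp31 lies on chromosome 7 from 121642021 to 121707253 on GRCm38.

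Usp39, a splicing factor of this family, was at 218, 212 and 208 CPM in tunicamycin, against 219.9, 226 and 239 CPM in vehicle. The groups did not overlap in CPM but did in TPM, and the log2 fold change was -0.10 (95% interval -0.25 to 0.05; edgeR adjusted p = 0.87). Otud1, an ovarian tumour domain deubiquitinase, was at 25.4, 22.9 and 27.6 TPM in tunicamycin, against 25.2, 18.7 and 25.3 TPM in vehicle. For Otud1 the groups overlapped, and the log2 fold change was -0.11 in CPM (95% interval -0.36 to 0.14) and 0.14 in limma on log2(TPM + 1). Usp42 was at -0.12 (95% interval -0.29 to 0.04).

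Across the 64 members the groups did not overlap for 7, against 12.6% of all genes tested. Of these, 3 had tunicamycin above (6.62% of all genes) and 4 had tunicamycin below (5.95% of all genes). In TPM the groups did not overlap for 8 members. There, 6 had tunicamycin above (10.4% of all genes) and 2 had tunicamycin below (3.54% of all genes). Psmb2, Klhl9, Usp31 and Klhl41 were apart in the same direction on both scales, that is 4 of 64 members, against 7.78% of all genes.

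**Figure D5:**
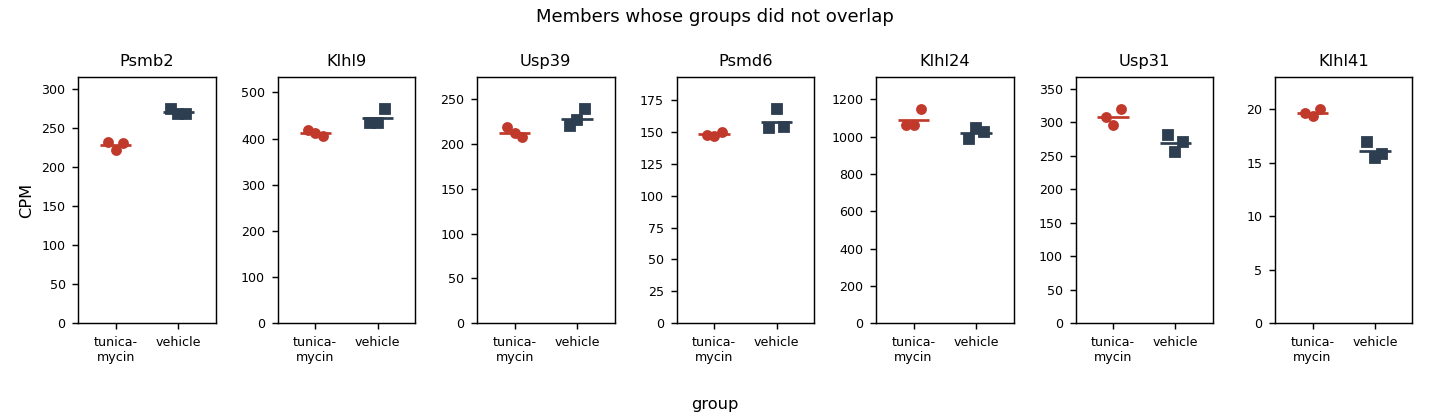
CPM by library (points) and group mean (lines) for the 7 members whose groups did not overlap, with tunicamycin as circles and vehicle as squares, each panel with its own axis from 0. Psmb2 shows 221 to 232 CPM in tunicamycin against 268 to 274 CPM in vehicle, and 0 of the 7 passed the adjusted test.

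The median deviation of the 64 members from their own mean, in log2 CPM, was 0.0002, -0.04 and 0.04 in tunicamycin replicates 1 to 3 and -0.002, -0.01 and 0.04 in vehicle replicates 1 to 3. Over all genes tested the same medians ran from 0.002 to 0.02. Of the counts summed over the rows analysed, which are not the whole library, members took up 1.43% ± 0.026 in tunicamycin and 1.40% ± 0.0306 in vehicle (SD, n = 3 each). Summed over the 106 members, TPM was 2429 to 2479 in tunicamycin and 2353 to 2413 in vehicle, so that these sums did not overlap. Among the families, the sums stood apart for E2 enzymes, at 421.5 to 441 TPM in tunicamycin and 416 to 420.2 TPM in vehicle, and for F-box proteins, at 243 to 253 TPM in tunicamycin and 220.5 to 239 TPM in vehicle. The sums of the other families overlapped. TPM summed over all rows was also apart, at 319120 to 330627 in tunicamycin and 331373 to 332870 in vehicle, in the other direction. In limma on log2(TPM + 1) the median log2 fold change was 0.05 for the members and 0.05 for all genes tested. In CPM, 5 of the 6 tested E2 members and 8 of the 16 tested F-box members lay below 0. These sums are descriptions with no test, and no rise of the members or of a family is read from them.

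Of the 42 members that were not tested, 28 had 0 counts in each library and 14 had between 1 and 49 counts in all. A count of 0 allows up to 3 counts per library, or 0.268 to 0.405 CPM over the 6 libraries, for counting error alone. The 28 include Fbxw14, Fbxw16, Fbxw18, Fbxw22, Fbxw24, Fbxw25, Fbxw26 and Fbxw27, a rodent cluster of F-box genes known from oocytes, and Rnf133 and Rnf148, known from testis. The most counts among the untested were those of Rnf208, with 49 counts in all, and of Usp17la and Usp17lc, near-identical copies within a family between which reads may be split.

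Other genes of the pathway were counted from 6 lists of 140 names, of which 18 had a row and were tested. In edgeR 0 of the 18 passed, as in DESeq2 and in limma on log2(TPM + 1), and 1 was at an unadjusted p under 0.05, beside 6.42% of all genes. Their median log2 fold change was -0.08, with 4 above 0 and 14 below, beside 1810 above and 1803 below over all genes. This split depended on the scaling, since the mean TPM was higher in tunicamycin for 7 of the 18 and lower for 11. Ubb, a polyubiquitin gene, was at -0.07 (95% interval -0.20 to 0.05). The list on proteasome assembly and regulation had 4 genes tested, with a median of -0.12. Its member Ddi2, the protease that activates NRF1, was the gene under that unadjusted p, at -0.14 (95% interval -0.27 to -0.01; edgeR adjusted p = 0.71). The list on retrotranslocation and ER-associated degradation had 6 genes tested, with a median of -0.07, and that of other deubiquitinases had 4, with a median of -0.05. Elob, an elongin of cullin ligases, was at -0.11 (95% interval -0.29 to 0.06) and Traf6, a ligase of receptor signalling, at 0.08 (95% interval -0.05 to 0.21).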

How the data were processed

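RNA of 6 libraries was sequenced as paired reads of 150 bp, per the labels' protocols. Tools named in the submitters' processing notes are bcl2fastq, Salmon and DESeq2, with GRCm39 as the build and no versions or roles. Estimated counts, some with fractions and none scaled for depth, and TPM are given for the same genes in the tables the authors deposited. Of 21951 protein-coding genes in GENCODE M21, 8538 had a row, 77.2% of those with a single transcript and 9.2% of those with at least 6, so totals are not library depths. Positions are on GRCm38 and were not converted. Besides the overlaps given above, exons of Ube2s overlap those of Rpl28 and exons of Psmb7 those of Nek6, on the opposite strand. Exons of Psmb5, Rnf40, Rnf208, Fbxo32, Fbxw8, Klhl21 and Usp31 also overlap other annotated genes.

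The rounded estimated counts went into edgeR 4.0.16 (R 4.3.3) with filterByExpr, TMM factors, robust quasi-likelihood F tests, all 6 libraries, no replicate block and Benjamini-Hochberg adjustment over 3613 genes at 0.05. The SE is the fold change over the root of F. The fit was checked on simulated counts. Alternatives used DESeq2 1.42.0, limma 3.58.1 on log2(TPM + 1) or log2(TPM + 0.1), other scalings and filters, and single libraries left out. Named members were, in each family, the 4 with the highest TPM and the 3 with the smallest unadjusted p; the 3 with the largest changes at a mean log2 CPM of 5 or more; the 3 untested with the most counts; any called; and a list chosen by role. Psmc6, Psmd7, Psmb11, Ube2z, Ube2o, Rnf113a1, Rnf113a2, Fbxw19 and the members named at 0 were added after their values were seen. Ddi2, a gene of the pathway lists, was also named after its value was seen. Members, lists and rules were chosen with earlier results of these data known. Between libraries of a group, the chi-square per degree of freedom over genes was 15.3 to 34.5, so none agreed within sampling noise.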

Additional observations from a re-analysis of the deposited data

How the results depend on the processing

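In each of 18 alternatives 0 members were called higher and 0 lower. Of 720 fold changes (40 named members, 18 alternatives), 55 changed sign, with 0 called before or after, and 22 members kept their sign in every alternative. The median of the tested members was 0.0126 without a composition factor, 0.0456 in limma on log2(TPM + 1) and 0.0622 with log2(TPM + 0.1), against -0.03 as reported; the medians of all genes were 0.04, 0.05 and 0.06. Over all genes, edgeR called 2 higher and 1 lower. DESeq2 called 10 and 12, no filter on low counts 10 and 6, and limma on log2(TPM + 1) 1 and 0. Lower calls were 2 with DESeq2 size factors and with at least 50 counts in 3 libraries. They were 0 without a composition factor, with log2(TPM + 0.1), without robust estimation and with effective-length offsets. Leaving out single libraries gave 1 to 4 higher, 0 to 1 lower and member medians of -0.04 to -0.01. The cause of these changes was not tested.

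Adding a replicate block gave 14 higher and 22 lower calls over all genes, 0 of them members, and 5 of 64 members had an unadjusted p under 0.05, against 10.7% of genes. Psmb2 had an edgeR adjusted p = 0.063 there. The block together with effective-length offsets gave 3 higher and 3 lower calls. Deviations of same-numbered libraries from their group means correlated at 0.04, 0.19 and 0.11 over all genes tested, and at 0.32, 0.12 and 0.27 over genes at a mean log2 CPM of 5 or more. Each tunicamycin library is named as the vehicle library of its number with tunicamycin added, but no label says what a number marks. For want of such a label, the numbers were not taken as pairs in the main fit. Over all genes each of the 6 libraries correlated best with its own number, which hints at a pairing that the main fit ignores. Within the 64 members this did not hold throughout. There, tunicamycin replicate 1 correlated at 0.33 with vehicle replicate 3 and at 0.03 with vehicle replicate 1. Intervals rest on 3 technical replicates a group, and 51 of 64 intervals lay within a 1.5-fold change.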

Other observations

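The groups of Rnf40, Fbxo33, Fbxw8 and Fbxw10 overlapped in CPM but not in TPM. Rnf40 in CPM was at 726, 730.4 and 711 in tunicamycin and 757, 734 and 715 in vehicle. In TPM it was at 50.3, 54.7 and 56.4 in tunicamycin and 49.3, 42.7 and 47.7 in vehicle. Its log2 fold change was -0.03 in CPM, 0.20 in limma on log2(TPM + 1) and 0.15 with effective-length offsets. Fbxo33 was at 26.4, 29.9 and 27.2 TPM in tunicamycin and at 23.8, 18.6 and 24.5 TPM in vehicle, with log2 fold changes of -0.01 in CPM, 0.32 in limma on log2(TPM + 1) and 0.26 with effective-length offsets. Neither passed on any scale, with adjusted p of 0.48 or above for Rnf40 and 0.50 or above for Fbxo33 over 18 alternatives.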
